A study of Mus musculus with 36 samples.

Results

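The 10 genes of one circuit are described here across 36 RNA-seq libraries of mouse mammary tissue: Csf3 and its receptor Csf3r, the CXCR2 ligands Cxcl1, Cxcl2, Cxcl3 and Cxcl5, their receptor Cxcr2, and the granulocyte products S100a8, S100a9 and Camp. The 10 genes were chosen by name, and all 10 were among the 21650 genes of the deposited expression table. Tissue was collected at 1, 3 and 6 weeks after injection, with 3 libraries for each of 4 kinds of gland at each time point, hence 12 groups. 4T1 tumors grew in BALB/c mice and Py230 tumors in C57BL/6 mice, and glands of each strain that received Matrigel, the carrier of the cells, served as controls. The 4T1 cells, a metastatic line of BALB/c origin, carried a firefly luciferase reporter, and the Py230 line goes back to a mammary tumor that arose in the MMTV-PyMT model, in which polyoma middle T is driven in mammary epithelium, on C57BL/6. Per the study's methods the recipients were lactating females whose pups had just been weaned, cells were delivered through the teat canal of the third gland, and more Py230 than 4T1 cells were given. Each model was grown in 1 strain only, so a difference between 4T1 and Py230 tumors cannot be told apart from a difference between the strains, except as far as the Matrigel glands show it.

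Csf3 encodes granulocyte colony-stimulating factor (G-CSF), the cytokine that drives the production of neutrophils in the bone marrow and their release into the blood, and Csf3r encodes its receptor on the granulocyte lineage. CXCL1, CXCL2, CXCL3 and CXCL5 are chemokines with a Glu-Leu-Arg motif that bind CXCR2 and guide neutrophils into tissue. S100A8 and S100A9 form calprotectin, the main cytosolic protein pair of neutrophils, which activated macrophages and stressed epithelium can make too, and Camp encodes the cathelicidin antimicrobial peptide stored in the secondary granules of maturing neutrophils. The 4T1 line is widely known for a strong granulocyte response in its host.

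On the mouse assembly GRCm38 (mm10), with GENCODE M21 gene models, all 10 were annotated as protein-coding genes. The 4 chemokine genes lie in one cluster on chromosome 5, all on the plus strand: Cxcl5 at chr5:90759360-90761624, Cxcl3 at chr5:90786103-90789600, Cxcl1 at chr5:90891241-90893115 and Cxcl2 at chr5:90903871-90905938. Csf3 is at chr11:98701263-98703629, Csf3r at chr4:126024550-126044440 and Cxcr2 at chr1:74153989-74161246. S100a8 (chr3:90668978-90670035) and S100a9 (chr3:90692632-90695721) are neighbours on opposite strands, and Camp is at chr9:109847379-109849617. Cxcl2 and Cxcl3 shared identical windows of 75 bases, amounting to 4.57% of the windows of Cxcl2 transcripts and 2.78% of those of Cxcl3, so some reads of these 2 genes may have been split or dropped between them, and their values are uncertain to that extent. Csf3r shared 2.95% of its windows with other genes, Cxcr2 1.12% and Cxcl5 0.571%. Cxcl1, Csf3, S100a8, S100a9 and Camp shared no such window with another gene.

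The sequences just upstream of Cxcl1, Cxcl2 and Cxcl3 are shown because these neighbours carry the same stretch close to their starts. Each line gives the plus strand from position -100 to position -25 relative to the RefSeq transcription start (assembly GRCm38.p6), at chr5:90891145-90891220 for Cxcl1, chr5:90903799-90903874 for Cxcl2 and chr5:90786001-90786076 for Cxcl3. Capitals mark matches to the NF-kappaB-like pattern GGGNNNTTC on either strand, including overlapping matches, and to the TATA pattern TATAAA.
Cxcl1: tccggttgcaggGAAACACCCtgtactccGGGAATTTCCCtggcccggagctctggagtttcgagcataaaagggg
Cxcl2: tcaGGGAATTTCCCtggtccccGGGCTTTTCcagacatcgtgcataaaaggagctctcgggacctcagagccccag
Cxcl3: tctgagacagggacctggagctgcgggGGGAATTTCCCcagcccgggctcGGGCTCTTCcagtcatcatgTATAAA
The longest run that these 3 upstream windows had in common was GGGAATTTCCC, which began at position -71 of Cxcl1, -97 of Cxcl2 and -73 of Cxcl3. It was present in 14 of 32851 RefSeq promoters (0.0426%), counting the 250 bases before the start. The printed stretch of Cxcl2 ends at 90903874, past the GENCODE gene start at 90903871. The 2 annotations thus place the start of Cxcl2 differently, and its position of -97 holds for the RefSeq start only.

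RefSeq promoter windows were at hand for 8 of the 10 genes, the exceptions being Csf3 and Cxcl5. Within 250 bases upstream, and on either strand, the pattern GGGNNNTTC was found in 6 of the 8 (Csf3r, Cxcl1, Cxcl2, Cxcl3, Cxcr2 and S100a9), against 11.8% of all promoters. The C/EBP-like pattern TTGCNNAA was found in S100a9 alone of the 8 (9.56% of all promoters), the PU.1-like pattern GAGGAA in Csf3r, Cxcr2 and S100a8 (23.3%), and TATAAA in Cxcl3 and S100a8 (12.4%). These matches describe letters in a window and not bound sites.

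**Figure D1:**
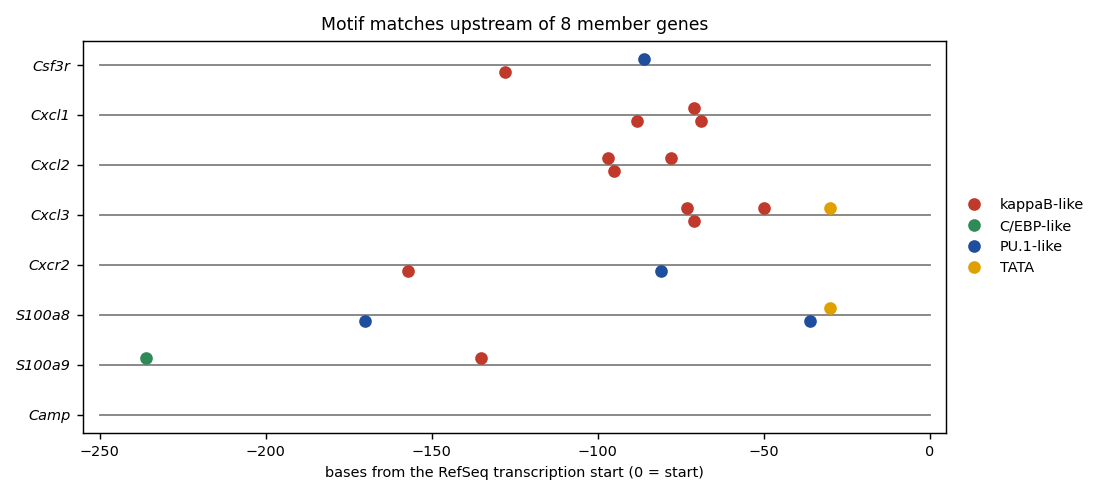
Matches to 4 short patterns in the 250 bases upstream of the RefSeq start of 8 genes, with the distance from the start in bases on the x axis. Points above a line are on the gene's own strand and points below it on the opposite strand. Cxcl1, Cxcl2 and Cxcl3 each carry 3 kappaB-like matches near the start, of which a pair overlaps, and Camp carries no match.

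Expression is given as the deposited score, standardized in each library so that its genes have mean 0 and SD 1. A score therefore places a gene among the genes of its own library, a difference of 1 is 1 SD of that library's genes, and no fold change can be read from it. Scores are compared here between libraries for 1 gene at a time and not between genes. Where differences of several genes are ranked, the order is in score units and does not rank fold changes. The authors' mean normalized count over all libraries was 346 for Csf3r, 248 for S100a9, 180 for S100a8, 112 for Cxcl1, 55.9 for Cxcr2, 55.2 for Csf3, 52.5 for Cxcl2, 25.2 for Cxcl5, 17.5 for Cxcl3 and 4.76 for Camp, so the last 3 genes rest on few reads. Differences are printed with their standard error (SE) from limma, a linear model with 1 mean per group, and a difference was called when its p-value, adjusted over all 21650 genes by the Benjamini-Hochberg method, was under 0.05. The study calls the 3 tumors of a group independent samples, but the labels tie no library to an animal, so the p-values measure the spread between these libraries, which may be technical in part.

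Several tumor libraries resembled control glands over all genes. By Pearson correlation, the nearest library was a Matrigel gland for replicate 2 of the 4T1 tumors at week 1, replicates 2 and 3 of the 4T1 tumors at week 3, replicate 3 of the Py230 tumors at week 3, and all 3 Py230 tumors at week 1. Results were also computed without the first 4 of these, and not without the 3 Py230 tumors of week 1, which make up their whole group. The highest correlation between any 2 libraries was 0.993 and the lowest within a group 0.947. Adipoq, the adipocyte hormone gene, scored from 0.69 to 2.35 in the 4T1 tumors at week 3 and from 0.44 to 2.24 in the Py230 tumors at week 3, against -0.56 to -0.02 and -0.04 to 1.21 at week 6. Bulk tissue was measured, so fewer cells of a type and less RNA per cell cannot be told apart.

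At week 6 the whole circuit was called higher in 4T1 tumors than in their control glands, and most of it higher than in Py230 tumors. All 10 genes were called higher in 4T1 tumors than in BALB/c Matrigel glands, against 38.6% of all genes, with a median difference of 1.43 for the 10 and 0.07 for all genes. Between 4T1 and Py230 tumors 9 of the 10 were called higher in 4T1, against 24.1% of all genes, with medians of 0.87 and 0.04, and Cxcl1 was the exception. Py230 tumors exceeded C57BL/6 Matrigel glands in 6 of the 10 genes, against 28.8% of all genes: Cxcl1, Cxcl2, Cxcr2, S100a8, S100a9 and Camp. No member was called lower in any of these comparisons.

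**Figure D2:**
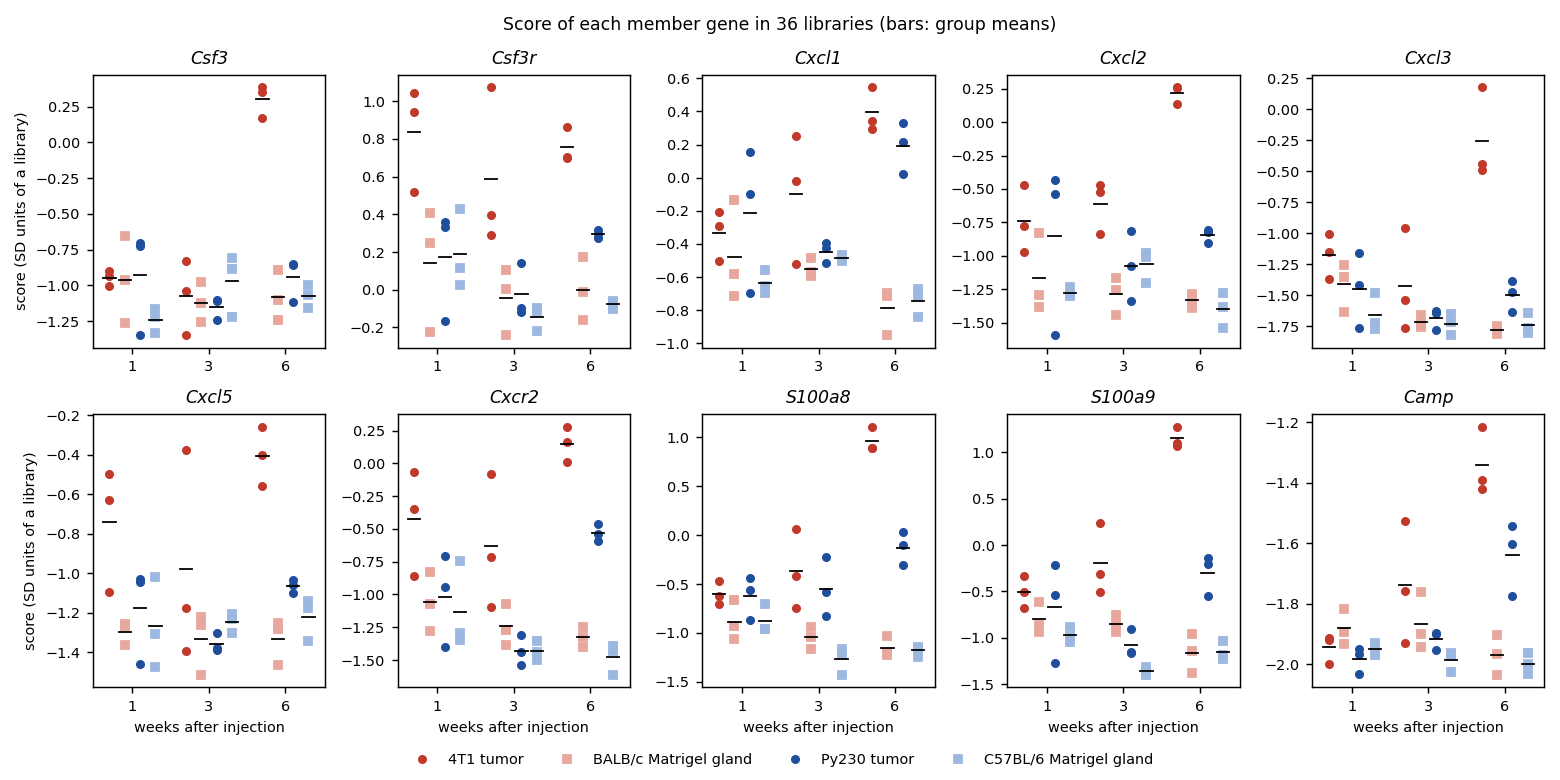
Score (y axis, in SD units of a library) of the 10 genes at 1, 3 and 6 weeks after injection (x axis), with 1 point per library and a bar at the mean of each group of 3. At week 6 the 3 4T1 tumors lie above every other library of that week for 9 genes, and for Cxcl1 the 4T1 and Py230 tumors overlap. Of all genes, 35.1% lay wholly higher in 4T1 than in Py230 tumors that week, and 41.5% wholly higher than in BALB/c glands. The share above every other library of the week was not computed.

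Csf3 itself was raised in a single group. Its scores were 0.39, 0.35 and 0.17 in the 4T1 tumors at week 6, and -0.85, -0.86 and -1.12 in the Py230 tumors at week 6. The earlier 4T1 tumors scored -0.90, -0.93 and -1.001 at week 1 and -0.83, -1.04 and -1.35 at week 3, and the 18 Matrigel glands ranged from -1.33 to -0.65. The week 6 4T1 tumors thus lay apart from all other libraries, while the other 11 groups overlapped with their neighbours in the order of the means. The difference between 4T1 and Py230 tumors at week 6 was 1.25 (SE 0.15, adjusted p = 2.34e-07) and that between 4T1 tumors and BALB/c glands was 1.38 (SE 0.15, adjusted p = 3.46e-08). In Py230 tumors at week 6 the difference from C57BL/6 glands was 0.13 (SE 0.15), which was not called. At weeks 1 and 3 the difference between the models was -0.02 and 0.08 (SE 0.15 each), neither of them called.

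Csf3r was called higher in 4T1 tumors from week 1 on, although its calls depended on single libraries. Its scores in 4T1 tumors were 0.94, 0.52 and 1.05 at week 1, 1.08, 0.40 and 0.29 at week 3, and 0.86, 0.70 and 0.70 at week 6. Py230 tumors scored -0.16, 0.33 and 0.36 at week 1, 0.14, -0.12 and -0.10 at week 3, and 0.32, 0.30 and 0.27 at week 6, within the -0.24 to 0.43 of the Matrigel glands. At each week the 3 4T1 libraries lay above the 3 Py230 libraries. The differences of 0.66 at week 1, 0.61 at week 3 and 0.46 at week 6 (SE 0.17 each) were called, and so were those between 4T1 tumors and BALB/c glands, at 0.69, 0.63 and 0.75. The week 1 call between the models was lost without replicate 1 or 3 of the 4T1 tumors or replicate 1 of the Py230 tumors (adjusted p from 0.0540 to 0.0856), and that against glands without replicate 1 or 3 of the 4T1 tumors or replicate 2 of the glands (adjusted p from 0.0672 to 0.106). The 4T1 to Py230 call at week 6 was lost without any 1 of its 6 libraries (adjusted p from 0.0567 to 0.117, differences from 0.40 to 0.49). Without replicate 1 of the 4T1 tumors at week 3 the difference from Py230 at that week was 0.37 (adjusted p = 0.0968) and from BALB/c glands 0.39 (adjusted p = 0.512). The calls between the models at weeks 1 and 3 were also lost when only the libraries compared were fitted. That fit called 1487 and 434 of all genes in these weeks.

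Cxcl1, the murine KC chemokine, was called higher than in glands in both models at week 6. Its scores at week 6 were 0.55, 0.29 and 0.35 in 4T1 tumors and 0.21, 0.33 and 0.02 in Py230 tumors, and all 6 lay above the -0.95 to -0.67 of the week 6 glands. The difference from the glands of the same strain was 1.18 in 4T1 (SE 0.17, adjusted p = 1.48e-06) and 0.93 in Py230 (SE 0.17, adjusted p = 6.60e-05). The models overlapped with each other, with a difference of 0.20 (SE 0.17, adjusted p = 0.356), which does not show that they were alike. At week 3 the 4T1 libraries spread from -0.52 to 0.25 and the Py230 libraries from -0.52 to -0.40.

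Cxcl2, also known as MIP-2, was higher in both models than in their glands at week 6 and higher in 4T1 than in Py230. 4T1 tumors scored 0.26, 0.13 and 0.26 and Py230 tumors -0.91, -0.81 and -0.82, while the week 6 glands ranged from -1.54 to -1.27. The 3 sets did not overlap. The difference was 1.55 between 4T1 tumors and glands (SE 0.19, adjusted p = 2.50e-07), 0.55 between Py230 tumors and glands (SE 0.19, adjusted p = 0.0209) and 1.06 between the models (SE 0.19, adjusted p = 7.21e-05). The Py230 call was lost without replicate 2 of the Py230 tumors (adjusted p = 0.0552) or replicate 3 of the glands (adjusted p = 0.0815). In the week 1 Py230 tumors Cxcl2 scored -1.59, -0.43 and -0.54, so that replicate 1 lay below all glands and the other two above them.

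Cxcl3 rose in 4T1 tumors and not detectably in Py230 tumors. Its week 6 scores were -0.49, -0.44 and 0.18 in 4T1 and -1.39, -1.47 and -1.63 in Py230, with glands of all weeks between -1.82 and -1.25. The 4T1 tumors lay above all other libraries, and replicate 3 stood well above its own group. The difference was 1.25 between the models (SE 0.17, adjusted p = 9.08e-07) and 1.53 between 4T1 tumors and glands (SE 0.17, adjusted p = 2.74e-08). For Py230 tumors and glands it was 0.24 (SE 0.17, adjusted p = 0.245).

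Cxcl5, a ligand made mainly by epithelial and stromal cells, was the one chemokine with a call at week 1, and that call depended on single libraries. 4T1 tumors scored -0.63, -1.10 and -0.50 at week 1, -0.38, -1.39 and -1.17 at week 3 and -0.26, -0.56 and -0.40 at week 6, against -1.51 to -1.02 in the 18 glands. Replicate 2 of week 1 and replicates 2 and 3 of week 3 lay within the range of the glands. The difference between 4T1 tumors and BALB/c glands was 0.55 at week 1 (SE 0.17, adjusted p = 0.0317) and 0.93 at week 6 (SE 0.17, adjusted p = 5.83e-05), and between the models it was 0.66 at week 6 (SE 0.17, adjusted p = 0.00300). At week 3 it was 0.35 against the glands (adjusted p = 0.239). Without the gland-like tumor libraries of weeks 1 and 3 the difference from glands was 0.96, a value that rests on 1 4T1 library of week 3. Leaving out tumors that resemble glands can itself widen a difference from glands. The week 1 call was lost without replicate 1 or 3 of the 4T1 tumors or replicate 1 or 2 of the glands (adjusted p from 0.0548 to 0.178). It was also lost when only the libraries compared were fitted (adjusted p = 0.145), where 0 of all genes were called. Py230 tumors scored from -1.46 to -1.03 over the 3 weeks, and no difference from their glands was called.

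Cxcr2, the receptor through which these ligands act on neutrophils, was called higher in 4T1 against Py230 tumors in every week. 4T1 tumors scored -0.35, -0.86 and -0.07 at week 1, -0.08, -0.71 and -1.10 at week 3 and 0.28, 0.01 and 0.16 at week 6. Py230 tumors scored -1.40, -0.94 and -0.71, then -1.54, -1.31 and -1.44, then -0.54, -0.46 and -0.60. The models overlapped at week 1 and not at weeks 3 and 6, with differences of 0.59, 0.80 and 0.68 (SE 0.20 each). At week 6 both models exceeded their glands, by 1.47 in 4T1 (adjusted p = 9.53e-07) and 0.94 in Py230 (adjusted p = 0.000434). The week 1 call was lost without any 1 of 4 libraries, namely replicates 1 and 3 of the 4T1 tumors and replicates 1 and 2 of the Py230 tumors (adjusted p from 0.0624 to 0.238), and the week 3 difference fell to 0.52 (adjusted p = 0.0443) without replicate 1 of the 4T1 tumors. Both calls were also lost when only the libraries compared were fitted, where 1487 and 434 of all genes were called at weeks 1 and 3.

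S100a8 and S100a9 showed the largest differences of the 10 genes, in score units, between 4T1 tumors and glands at week 6. S100a8 scored 1.11, 0.89 and 0.89 in 4T1 tumors and 0.03, -0.10 and -0.31 in Py230 tumors, and S100a9 scored 1.28, 1.07 and 1.11 in 4T1 and -0.14, -0.20 and -0.55 in Py230. The week 6 glands lay between -1.24 and -1.03 for S100a8 and between -1.37 and -0.96 for S100a9, so the 3 sets were separate for both genes. S100a8 was 2.12 above glands in 4T1 (SE 0.16, adjusted p = 3.64e-11) and 1.05 above them in Py230 (SE 0.16, adjusted p = 7.19e-06). S100a9 was 2.31 above glands in 4T1 (SE 0.18, adjusted p = 1.31e-10) and 0.85 above them in Py230 (SE 0.18, adjusted p = 0.000450). Between the models the difference was 1.09 for S100a8 (adjusted p = 2.61e-06) and 1.45 for S100a9 (adjusted p = 3.72e-07).

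In Py230 tumors at week 3 S100a8 was the only one of the 10 genes called above glands. It scored -0.23, -0.59 and -0.82 there, above the -1.43 to -1.16 of the C57BL/6 glands (difference 0.72, SE 0.16, adjusted p = 0.00225). S100a9 scored -1.16, -0.91 and -1.15 against -1.40 to -1.32 in those glands, so these sets did not overlap either, but its difference of 0.28 (SE 0.18) was not called. Whether the 2 genes differ from each other was not tested. In 4T1 tumors at week 3 both were called above BALB/c glands, at 0.68 for S100a8 and 0.65 for S100a9, and without replicate 1 of these tumors, which had the highest score of both, the differences were 0.46 and 0.44 with adjusted p = 0.363 and 0.504.

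Camp had scores near the low end of each library and a mean count under 10, so its values are the least certain. It scored -1.21, -1.39 and -1.42 in 4T1 and -1.54, -1.60 and -1.77 in Py230 tumors at week 6, with week 6 glands from -2.04 to -1.90. The sets did not overlap, and the differences from glands were 0.63 in 4T1 (SE 0.07, adjusted p = 4.02e-08) and 0.36 in Py230 (SE 0.07, adjusted p = 0.000177). At week 1 its scores in tumors of both models, from -2.03 to -1.91, lay within the range of the 18 glands (-2.04 to -1.76).

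**Figure D3:**
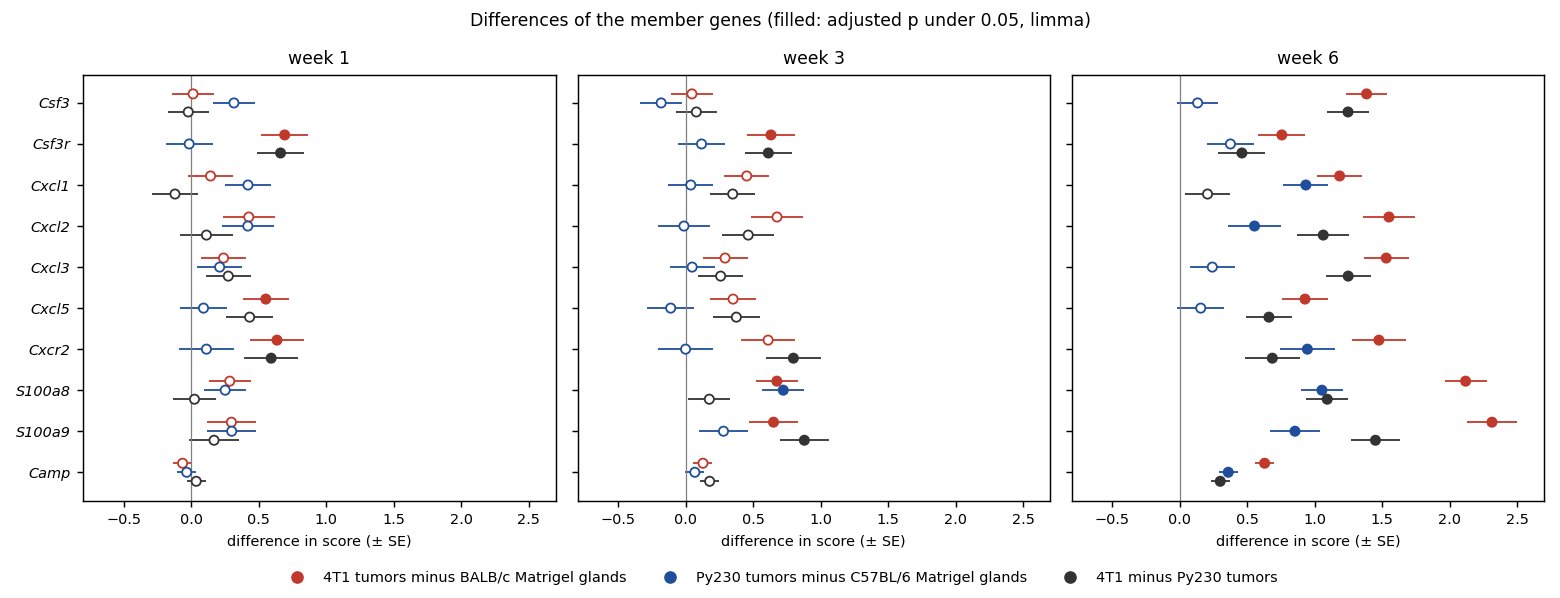
Differences in score with their SE for the 10 genes at weeks 1, 3 and 6, for 4T1 tumors against BALB/c Matrigel glands, Py230 tumors against C57BL/6 Matrigel glands, and 4T1 against Py230 tumors; filled points were called. At week 6 all 10 differences of 4T1 tumors from glands are filled, from 0.63 for Camp to 2.31 for S100a9.

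The earlier weeks gave few calls. Between the models 2 genes were called higher in 4T1 at week 1 (Csf3r and Cxcr2), against 11.0% of all genes, and 3 at week 3 (Csf3r, Cxcr2 and S100a9), against 11.9%. 4T1 tumors exceeded BALB/c glands in 3 genes at week 1 (Csf3r, Cxcl5 and Cxcr2), against 9.91% of all genes, and in 3 at week 3 (Csf3r, S100a8 and S100a9), against 2.10%. Py230 tumors differed from C57BL/6 glands in 0 genes at week 1, where 0.00924% of all genes were called in either direction by limma and 3 of the 10 had an unadjusted p under 0.05, and in S100a8 alone at week 3, against 12.8% called higher.

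These early counts depended on single libraries. Another fit left out 4 of the gland-like tumor libraries. In 4T1 tumors these were replicate 2 of week 1 and replicates 2 and 3 of week 3. In Py230 tumors it was replicate 3 of week 3. This choice was made after seeing the data, and it can itself widen a difference from glands. It leaves a single 4T1 library at week 3 that is assumed to vary like the other groups, so its week 3 calls are not counted as results. The share of all genes called was not computed for single omissions, so the counts below show only how the calls depend on single libraries. The count of 3 in 4T1 tumors against glands was 0 without replicate 1 of the 4T1 tumors at week 3, or without any 1 of the 3 glands, and the count of 3 at week 1 was 0 without replicate 1 or 3 of the 4T1 tumors or replicate 2 of the glands. The count of 2 between the models at week 1 was 0 without replicate 1 or 3 of the 4T1 tumors or replicate 1 of the Py230 tumors. At week 6 each single omission left 8 calls between the models, 10 for 4T1 tumors against glands, and 5 or 6 for Py230 tumors against glands.

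Control glands of the 2 strains were compared in the same way. By limma 0 of the 10 genes were called between BALB/c and C57BL/6 Matrigel glands at week 1, 0 at week 3 and 0 at week 6, against 3.06%, 3.77% and 3.84% of all genes called in either direction, and 0, 1 and 0 of the 10 had an unadjusted p under 0.05. That 1 gene was S100a9 at week 3 (difference 0.51, SE 0.18, adjusted p = 0.151), which was called when only the libraries compared entered the fit (adjusted p = 0.00507). At week 3 the BALB/c glands lay wholly above the C57BL/6 glands for 3 of the 10 genes, S100a9, S100a8 (-1.16 to -0.94 against -1.43 to -1.16) and Camp (-1.94 to -1.76 against -2.03 to -1.96), as they did for 13.3% of all genes. Over time, 0 of the 10 changed from week 1 to week 6 in BALB/c glands (0.0831% of all genes called, 1 of the 10 with an unadjusted p under 0.05) and 0 in C57BL/6 glands (0.194% and 0 of the 10).

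With the difference of the glands subtracted from the difference of the tumors, 7 of the 10 genes were called higher in 4T1 at week 6, against 14.4% of all genes. They were Csf3 (1.25, SE 0.22), Cxcl2 (1.00, SE 0.27), Cxcl3 (1.29, SE 0.24), Cxcl5 (0.77, SE 0.24), S100a8 (1.06, SE 0.22), S100a9 (1.46, SE 0.26) and Camp (0.27, SE 0.10). Csf3r (0.38, SE 0.25), Cxcl1 (0.25, SE 0.24) and Cxcr2 (0.53, SE 0.29) were not called. The call of Camp (adjusted p = 0.0468) was lost under 8 of the 12 single omissions and under cyclic loess scaling (0.19, adjusted p = 0.141), and that of Cxcl5 without replicate 1 of the 4T1 tumors (adjusted p = 0.0546) or of the BALB/c glands (adjusted p = 0.0503). At weeks 1 and 3 limma called 0 of the 10, against 0.305% and 9.15% of all genes in either direction, with 1 and 3 of the 10 at an unadjusted p under 0.05. Without the 4 gland-like tumor libraries limma called 3 at week 1, and the share of all genes called was not computed there. At week 3 that fit leaves 1 4T1 library, so its calls are not counted as results.

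Within the models, most calls over time fell between weeks 3 and 6. In 4T1 tumors 9 of the 10 genes rose in that interval, against 34.2% of all genes, with the largest changes for Csf3 (1.38, SE 0.15), S100a9 (1.35, SE 0.18), S100a8 (1.33, SE 0.16) and Cxcl3 (1.17, SE 0.17), and Csf3r changed by 0.17 (SE 0.17, adjusted p = 0.433). In Py230 tumors 4 rose, against 3.96% of all genes: Cxcr2 (0.90, SE 0.20), S100a9 (0.78, SE 0.18), Cxcl1 (0.64, SE 0.17) and Camp (0.28, SE 0.07). All 4 of these calls were lost without replicate 2 of the Py230 tumors at week 6, and only that of Cxcr2 was kept without replicate 1 of that group or replicate 3 of week 3. The rise of Cxcl1 in 4T1 tumors (0.49, SE 0.17) was 0.28 (adjusted p = 0.154) without replicate 1 of week 3 and was lost without replicate 1 of week 6 (adjusted p = 0.0703). That of Cxcl5 (0.57, SE 0.17) was 0.88 without replicate 1 of week 3, 0.37 (adjusted p = 0.0850) without replicate 2, and turned to -0.030 without the 4 gland-like tumor libraries. Without those 4 libraries the rise of Cxcr2 in 4T1 tumors was 0.23 and that of Camp 0.18. These last 3 values rest on 1 4T1 library of week 3.

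Between weeks 1 and 3 limma called 0 of the 10 genes in 4T1 tumors, against 0.628% of all genes in either direction, and 0 in Py230 tumors, against 20.0%, with 1 of the 10 at an unadjusted p under 0.05 in each. Leaving out replicate 1 of the 4T1 tumors at week 3 gave 3 calls in 4T1, and leaving out replicate 1 of the Py230 tumors at week 1 gave 4 in Py230. The share of all genes called was not computed for these or other single omissions. The difference between the models itself changed from week 3 to week 6 for 3 genes, against 17.8% of all genes called higher: Csf3 (1.17, SE 0.22), Cxcl3 (0.99, SE 0.24) and S100a8 (0.92, SE 0.22). Without replicate 1 of the 4T1 tumors at week 3 it changed for 6. Without the 4 gland-like libraries the value of Cxcl3 was 0.51, which rests on 1 4T1 library of week 3. From week 1 to week 3 it changed for 0, against 15.3% of all genes in either direction, with 1 of the 10 at an unadjusted p under 0.05, and for 3 without replicate 1 of the Py230 tumors at week 1.

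Genes that mark neutrophils and are not among the 10 were counted beside them. Of 12 neutrophil markers, 11 were called higher at week 6 in 4T1 than in Py230 tumors, against 24.1% of all genes. Their median difference was 0.76 against 0.04 for all genes, and Cxcr4 was the exception at -0.24. The cystatin gene Stfa2l1 differed by 0.79 (adjusted p = 2.37e-10) and Ly6g, the surface marker that defines mouse neutrophils, by 0.45 (adjusted p = 2.59e-08). Ly6g scored from -1.80 to -1.57 in the 4T1 tumors at week 6 and from -2.29 to -2.08 in all other groups, so it lay near the bottom of every library. Against their glands, 10 of the 12 were called higher in 4T1 tumors at week 6, where 38.6% of all genes were, and 4 of the 12 in Py230 tumors, a share near the 28.8% of all genes. At weeks 1 and 3 the counts were 2 and 4 between the models, 3 and 0 for 4T1 against glands, and 0 and 1 for Py230 against glands. Of all genes, 11.0% and 11.9% were called higher between the models, and 9.91% and 2.10% for 4T1 against glands. For Py230 against glands 0.00924% were called in either direction at week 1 and 12.8% higher at week 3.

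The 11 granule protein genes on the list did not move as one. At week 6, 7 were called higher and 2 lower in 4T1 when set against Py230, where 24.1% of all genes were called higher. Of the 8837 genes called in that comparison, 5220 were higher and the rest lower. Padi4, the enzyme that citrullinates histones in neutrophil extracellular traps, differed by 1.66 (adjusted p = 1.14e-08) and the neutrophilic granule protein gene Ngp by 1.63 (adjusted p = 1.22e-07), and the gelatinase gene Mmp9 differed by 1.03. The 2 lower genes, Ltf being named after its values were seen, were Lcn2 (-0.76) and the lactoferrin gene Ltf (-0.88), both of which mammary epithelium is known to express. Elane, a protease of early granules, differed by 0.16 and was not called, and Mpo differed by 0.23. Against BALB/c glands 6 were higher and 1, Ltf (-2.15), was lower in 4T1 tumors at week 6, where 38.6% of all genes were called higher. Against C57BL/6 glands 3 were higher and 3 lower in Py230 tumors, where 28.8% of all genes were called higher. Of the 13015 and 10296 genes called in these 2 comparisons, 8360 and 6238 were higher and the rest lower.

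**Figure D4:**
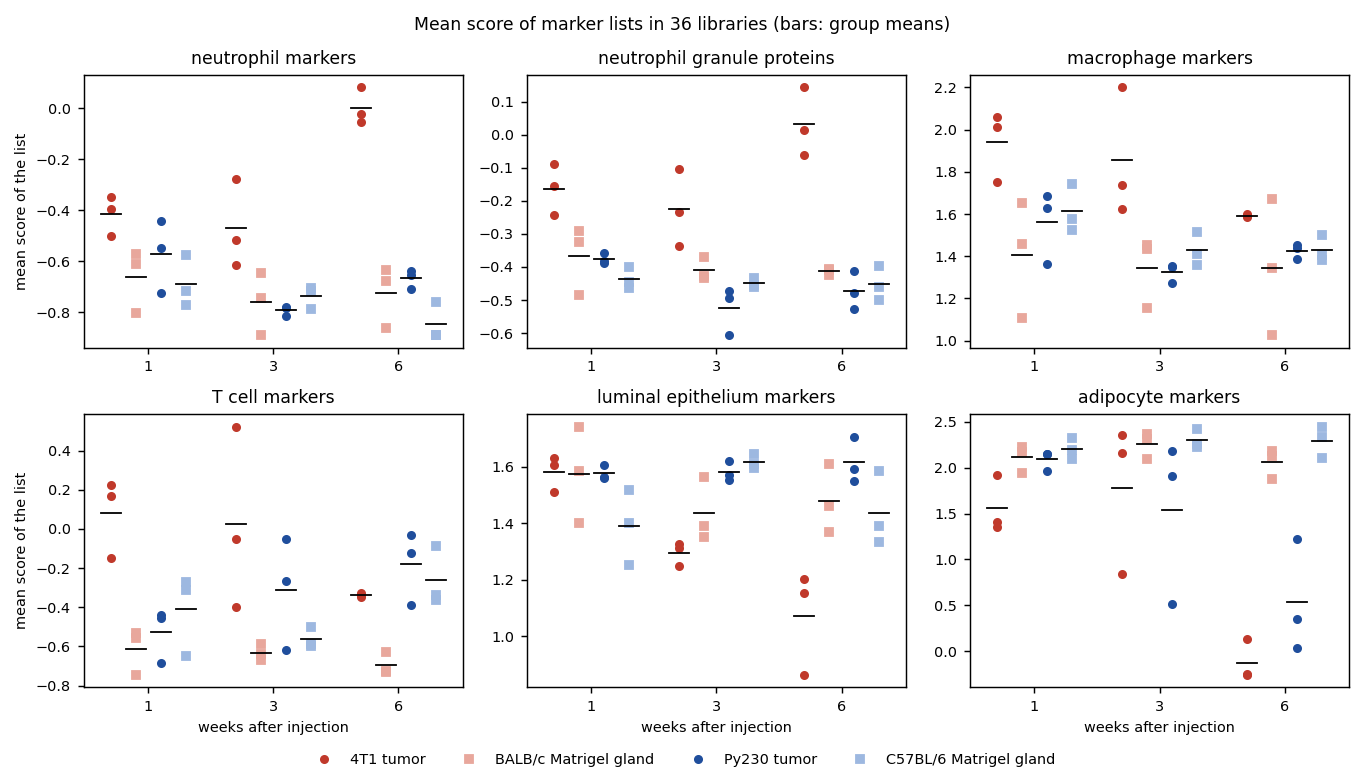
Mean score (y axis) of 6 marker lists in each of the 36 libraries by week (x axis), with a bar at the mean of each group of 3. The neutrophil markers reach -0.06 to 0.08 in 4T1 tumors at week 6 and lie between -0.89 and -0.28 in all other libraries. At week 6 the adipocyte markers are lower in the tumors of both models than in the glands, and the 4T1 and Py230 tumors overlap.

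Other cell types moved with the same comparisons, and their part in the results above was not tested. Of all genes, 9.91%, 2.10% and 38.6% were called higher in 4T1 tumors than in glands at weeks 1, 3 and 6. At week 6, 13015 and 10296 of the 21650 genes were called in either direction against glands in 4T1 and Py230 tumors. Of these, 8360 and 6238 were higher in the tumors and the rest lower. Between the models 8837 were called in either direction at week 6, 5220 of them higher in 4T1 and the rest lower. All 6 macrophage markers were called higher in 4T1 tumors than in glands at week 1, 3 at week 3 and 2 at week 6, and their mean score was 1.58 to 1.60 in 4T1 and 1.39 to 1.46 in Py230 tumors at week 6, where 0 of 6 differed between the models. All 6 T cell markers were higher in 4T1 tumors than in glands at weeks 1 and 3 and 3 at week 6. All 6 adipocyte markers were lower than in glands in both models at week 6, with mean scores of -0.26 to 0.14 in 4T1 and 0.04 to 1.23 in Py230 tumors against 1.87 to 2.45 in the glands. At week 6, 5 of 6 milk protein genes were lower in 4T1 against Py230 tumors. The luminal epithelium markers Epcam and Krt18 stayed high in every library (from 1.11 to 1.90 and from 1.63 to 2.13), and of the 6 on that list 2 were lower at week 6 in 4T1 against Py230 tumors, Elf5 (-1.95) and Krt19 (-1.25). Of 6 keratinocyte markers 0 differed between the models at any week, although Krt10 reached 0.73 in 1 4T1 tumor and 2.00 and 1.36 in glands of week 6. Of 5 B cell, 3 erythroid and 5 eosinophil markers, 0 were called higher at week 6 in 4T1 against Py230 tumors. Pax5, on the B cell list, was called lower there by limma (-0.55, adjusted p = 0.000954). Of 6 fibroblast and endothelial markers 2 were called higher in that comparison, against 24.1% of all genes, and of 6 skeletal muscle markers 0.

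Genes upstream and downstream of G-CSF were also counted. Of 14 genes for inducers, signalling and feedback, 8 were higher and 1 lower in 4T1 tumors than in BALB/c glands at week 6. In Py230 tumors 7 were higher and 0 lower than in C57BL/6 glands. Of all genes, 38.6% and 28.8% were called higher in these 2 comparisons, namely 8360 of 13015 and 6238 of 10296 genes called, the rest being lower. Il1b, a cytokine that induces G-CSF in many cell types, was 1.51 above glands in 4T1 and 1.62 in Py230 tumors, both called, and differed by 0.18 between the models, which was not called. Il6 was 0.48 and 0.65 above glands at week 6, both called. Cebpb, a factor of emergency granulopoiesis, was 0.41 above glands in 4T1 (adjusted p = 7.48e-07) and 0.45 in Py230 (adjusted p = 6.94e-07). Between the models at week 6, 3 were higher and 3 lower in 4T1, and the 3 higher are a share near the 24.1% of all genes. All genes gave 8837 calls there, 5220 of them higher and the rest lower. The higher were led by Jak2 (0.63, adjusted p = 5.98e-07), the kinase beneath the receptor, and Il17ra (0.39, adjusted p = 0.000480). Tnf was among the lower (-0.39). At week 1, 5 were higher and 1 lower in 4T1 tumors than in glands, led by Il6 (0.77) and Jak2 (0.34), where 9.91% of all genes were called higher. All genes gave 3601 calls in that comparison, 2146 of them higher and the rest lower. Il17a, Il17f and Csf2 were not analysed here.

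The remaining CXCR2 ligands and related receptors were counted too. Of 6 genes, 3 were higher and 1 lower in 4T1 against Py230 tumors of week 6, where 24.1% of all genes were called higher. Among the 8837 genes called there, 5220 were higher and the rest lower. Cxcr1, the sister receptor, differed by 0.40 (adjusted p = 2.61e-07), with scores from -1.69 to -1.53 in 4T1 and -2.02 to -2.00 in Py230 tumors. Ppbp, the platelet ligand CXCL7, differed by 0.23. Cxcl15, an epithelial ligand known from lung, was lower in 4T1 at -1.05 (adjusted p = 0.00641), with scores of -1.04 to -0.61 in 4T1, 0.10 to 0.33 in Py230 and 0.22 to 1.05 in the glands of week 6. Ackr1, a decoy receptor of venules, was below glands in both models (-1.16 in 4T1 and -0.70 in Py230).

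As a description over the 12 group means, with no test, the courses of the 10 genes were alike to different degrees. Pearson's r was highest between S100a8 and S100a9 (0.955) and lowest between Csf3 and Csf3r (0.549). Csf3r was nearest to Cxcr2 among the members (0.920) and Csf3 to Cxcl3 (0.935). Among 13567 genes with a mean count of at least 100, those most like Csf3 were Stc1 (0.987), Itga3 (0.983), Tpbg (0.974), Atxn7l2 (0.973) and Ddb1 (0.973). Those most like Csf3r were Arrb2 (0.995), Lgmn (0.984), Ncf1 (0.983), Ripk3 (0.981) and Ikbke (0.978). For Cxcl5 they were Msn (0.985), Snx6 (0.984), Tor4a (0.976), S100a4 (0.975) and Emp1 (0.975), and for S100a8 they were Hbegf (0.975), Gm5578 (0.974), Tcea1 (0.974), Tpp2 (0.972) and Fam193a (0.969). The 12 means share the same tissues and the same shift at week 6, so high values of r are common among genes that change there.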

How the data were processed

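Per the study's methods, the authors prepared stranded libraries, sequenced read pairs, used STAR for alignment to mm10 and summariseOverlaps for gene counts, and normalized with DESeq2; versions and the annotation are not given in the sources used here. The expression values the authors deposited are score values, centred to mean 0 and scaled to SD 1 within each library. The transformation before this step is not stated, and counts and depth cannot be recovered, so precision rests on the spread between libraries. The deposited table of mean normalized counts (baseMean) was used for levels and for a filter. The columns of the authors' own fold changes and p-values for 4T1 against Py230 were not used. All 36 score columns were matched to samples by title, with 0 left over, and 5384 genes without a deposited symbol were named from the reference.

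Scores of all 21650 genes were fitted in R 4.3.3 with limma 3.58.1: 1 mean per group over 36 libraries, trended and robust empirical Bayes, no filter, Benjamini-Hochberg over all genes, threshold 0.05. With 3 against 3 libraries an exact permutation test cannot go below 0.1, so none was run. Alternatives were cyclic loess, a robust line to the median library, a mean count of at least 10, no trend or robust step, fitting only the libraries compared, a replicate block, and leaving out each library. The code was tested on simulated scores. Figures, levels and motif counts used Python 3.11.15. Genes named outside the 10 are the 2 with the smallest p of a list in a comparison, fixed defining markers, or the 5 most correlated genes. The members and lists were chosen with earlier results of these data known.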

Additional observations from a re-analysis of the deposited data

Results flagged for a closer look

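At week 6 the difference between tumor and gland was larger in the 4T1 than in the Py230 model for 7 genes, by the test of the difference of differences in limma. The values were 1.25 for Csf3 (adjusted p = 8.65e-05), 1.00 for Cxcl2 (adjusted p = 0.00817), 1.29 for Cxcl3 (adjusted p = 0.000172), 0.77 for Cxcl5 (adjusted p = 0.0201), 1.06 for S100a8 (adjusted p = 0.000679), 1.46 for S100a9 (adjusted p = 0.000120) and 0.27 for Camp (adjusted p = 0.0468, lost under 8 of 12 single omissions and under cyclic loess scaling). The difference between the models was also larger at week 6 than at week 3 for Csf3 (1.17, adjusted p = 0.000260), Cxcl3 (0.99, adjusted p = 0.00281) and S100a8 (0.92, adjusted p = 0.00310). Without the 4 gland-like tumor libraries, which leaves 1 4T1 library at week 3, the value of Cxcl3 was 0.51. Strain and model cannot be told apart in these values beyond what the Matrigel glands show.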

How the results depend on the processing

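Of the 23 counts of called genes, all 23 stayed within 1.5 times under cyclic loess, the robust line, the count filter (Camp was then not tested), no trend or robust step, and the replicate block (9 calls between the models at week 6, as without it), which added 1 call (Camp between the models at week 3, 0.18, adjusted p = 0.0297). Fitting only the libraries compared gave 0 calls between the models at week 1 and 0 at week 3, against 1487 and 434 of all 21650 genes. For 4T1 tumors against glands it gave 0 at weeks 1 and 3, where 0 of all genes were called in either week. For Py230 tumors against glands at week 3 it gave 0, against 36 of all genes. Between the glands at week 3 it gave 1, against 897 of all genes. For Py230 tumors from week 3 to week 6 it gave 1, against 92. Counts of 0 where few or no genes were called say little about the members. Leaving out 1 library gave 0 to 3 calls between the models at week 1, 3 to 5 at week 3, 0 to 3 and 0 to 4 for 4T1 tumors against glands at weeks 1 and 3, 0 to 1 for Py230 tumors against glands at week 1, 0 to 1 with the glands subtracted at week 1 and 0 to 1 at week 3, 0 to 3 in 4T1 and 0 to 4 in Py230 tumors from week 1 to week 3, 0 to 5 in Py230 tumors from week 3 to week 6, and, for how the difference between the models changed, 0 to 3 over weeks 1 to 3 and 3 to 6 over weeks 3 to 6. Replicate numbers were not used as pairs, because the study's methods pair no animals. Of 54 same-numbered pairs, 17 had deviations correlated above 0.1 (range -0.543 to 0.789). Differently numbered pairs were not examined, so these values cannot decide whether the numbers pair the libraries. Without the 4 tumor libraries named in the report there were 6 calls between the models and 7 for 4T1 against glands at week 3, 3 and 4 with the glands subtracted at weeks 1 and 3, 1 in 4T1 tumors and 1 for the models' difference over weeks 1 to 3, and Cxcl5 in 4T1 tumors from week 3 to week 6 was reversed at -0.030 (adjusted p = 0.901). Apart from the 3 calls of week 1, all values of this fit, the adjusted p included, rest on 1 4T1 library of week 3. They are listed only as departures from the main fit, and no result is drawn from them. The share of all genes called was not computed for this fit. Leaving out tumors that resemble glands can itself widen a difference from glands. Where no value above names a cause, the cause was not tested. Depth is unknown, which limits Camp, Cxcl3 and Cxcl5 most.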
